A study of Homo sapiens with 21 samples.

Results

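The comparison described here is the step from 12 to 24 h in cultures that never received doxycycline: 3 libraries collected at 24 h (NoDox 24 h) against 3 collected at 12 h (NoDox 12 h), 6 of the 21 libraries of the series. It was read across every expressed gene, meaning the 19655 of 61268 features in the count table that passed a filter on low counts in the fit of all libraries. Among them, the genes that differed at 12 h from the cultures at day 10, when the time count began, and then moved back by 24 h are treated in most depth.

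All cells were H9 human embryonic stem cells, an established line, carrying TRE3G 2xFLAG-GSX2 WT, a doxycycline-inducible and FLAG-tagged copy of wild-type GSX2. GSX2 is a homeobox transcription factor that patterns the lateral ganglionic eminence (LGE), where the projection neurons of the striatum are born. Every group followed an LGE-like differentiation in Essential 6 medium, first with LDN193189, SB431542 and XAV939, then with LDN193189 and SB431542, and last with IWP2 and Activin A. The NoDox 24 h and NoDox 12 h groups hold the transgene and did not get the drug, and the day 10 group precedes them. Dox 24 h and Dox 12 h cultures, used once for comparison, received 100 ng/mL doxycycline for 12 h from day 10. The labels name 1 transgenic line and 3 replicates per group, but not whether each replicate was grown separately, so p-values here measure only how these libraries spread, which may be technical.

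Cultured neural progenitors divide, sense nutrients and stress, and answer growth factors in the medium, and each of these leaves a trace in messenger RNA. Chaperone genes follow unfolded protein through heat shock factors, replication genes follow E2F factors at the entry to S phase, and mitotic genes peak later in the cycle. Genes of LGE and neuronal identity change as progenitors mature. A step between 2 ages of a culture without doxycycline can therefore hold both kinds of change, those that move away and come back and those that carry on.

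The libraries held 21.5 to 33.8 M counts at 24 h, 19.6 to 22.7 M at 12 h and 14.4 to 22.4 M at day 10. Replicate pairs exceeded sampling noise, with chi-square values per degree of freedom between 1.93 and 4.23 at 24 h and between 2.39 and 4.67 at 12 h. Day 10 replicate 1 was the most distant, at 10.6 and 14.3 from the other replicates of its group. Values are given as CPM, counts scaled to library size. All 10 telencephalic progenitor markers were tested, and they summed to 6808 to 6854 CPM at 24 h and 7226 to 7293 CPM at 12 h. Among the pluripotency markers, 3 of 7 passed the filter, and they summed to 181 to 187 CPM at 24 h and 225 to 239 CPM at 12 h. Of the neural crest markers 5 of 8 were tested, with sums of 592 to 624 CPM at 24 h and 794 to 842 CPM at 12 h, and of the non-neural ectoderm markers 5 of 8, with sums of 193 to 218 CPM at 24 h and 311 to 338 CPM at 12 h. Mesenchyme and endothelium markers, 7 of 9 tested, summed to 1040 to 1184 CPM at 24 h and 1367 to 1520 CPM at 12 h. Markers of the dorsal midline (hem, roof plate, choroid plexus), 7 of 9 tested, summed to 200.4 to 236 CPM at 24 h and 194.5 to 213.5 CPM at 12 h, and 4 of them fell and 1 rose in the step (median -0.64). Mesoderm and endoderm markers (4 of 8 tested) and midbrain and hindbrain markers (3 of 9) summed to at most 1.78 and 3.06 CPM at 24 h and 1.83 and 4.3 CPM at 12 h. The tested members alone enter these sums. Among the untested ones TBXT, TDGF1, FOXA2, EN1, HOXB2 and KRT5 were at 0 counts in every day 10, 12 h and 24 h library. The part of such cells in the results was not tested. GSX2 itself stood at 14.7, 12.1 and 11.3 CPM at 24 h and at 10.6, 8.18 and 7.08 CPM at 12 h, a log2 fold change of 0.58 ± 0.22 that passed the edgeR quasi-likelihood test narrowly (adjusted p = 0.0468) and did not pass without NoDox 24 h replicate 1 (adjusted p = 0.193). The cells also carry the transgene copy of GSX2, so the split of reads between gene and transgene is uncertain.

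Between 12 and 24 h, 3523 genes were higher and 3371 lower, 17.9% and 17.2% of those tested, at an adjusted p below 0.05 (edgeR quasi-likelihood test, Benjamini-Hochberg adjustment over all genes). Changes were mostly moderate, since 458 genes (2.33%) rose and 330 (1.68%) fell by at least 2-fold. At the edge of the call, VPS13C (adjusted p = 0.04998) and TTC13 (0.04999) were just inside and ADAMTS4 (0.05 after rounding) just outside. Here and below, a log2 fold change is given with an approximate standard error and rests on 3 libraries per group, and CPM values are listed by library in replicate order.

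The rule for swinging back took genes called at 12 h against day 10 and called in the other direction at 24 h against 12 h. By 12 h, 3051 genes (15.5%) had risen and 3202 (16.3%) had fallen. Of those that had fallen, 1933 rose again by 24 h, which is 60.4% of them and 9.83% of all genes tested. Of those that had risen, 1919 fell again, which is 62.9% of them and 9.76% of all genes tested. Genes that went on in the same direction were few: 68 rose in both steps and 46 fell in both. Both steps use the same 12 h libraries, so a gene that is high or low in those libraries by error alone moves out and back in this count.

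The comparison of 24 h with day 10 leaves out the 12 h libraries, and 1738 genes (8.84%) were higher and 1664 (8.47%) lower in it. Without NoDox 24 h replicate 1, the deepest library, 1118 were higher and 945 lower. Of the genes that fell and rose again, 1677 (86.8%) were not called in that comparison, 120 were still below day 10 and 136 had passed above it. Of the genes that rose and fell again, 1631 (85%) were not called, 129 were still above day 10 and 159 had passed below it. A missed call does not show that a gene was back at its day 10 level. The median log2 change over the genes that fell and rose again was -0.45 by 12 h and 0.44 from 12 to 24 h, and over the genes that rose and fell again it was 0.44 and -0.47. Larger swings, of at least 2-fold both ways, were made by 127 and 158 genes.

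**Figure D1:**
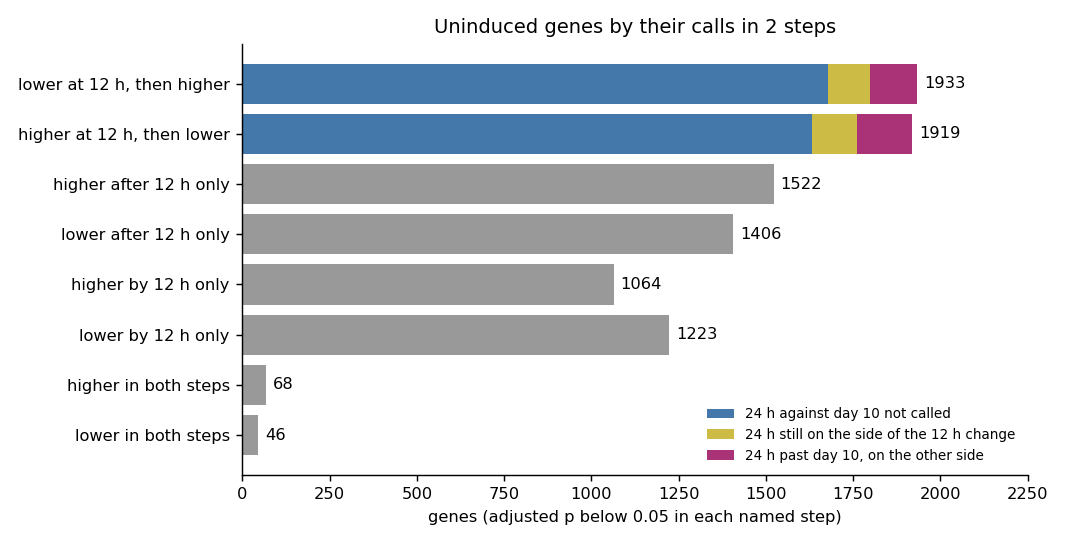
Number of genes (x axis) in each class of calls over the uninduced steps from day 10 to 12 h and from 12 to 24 h. Colours split the 1933 and 1919 genes that swung back by the comparison of 24 h with day 10, and the bars for genes moving in 1 direction in both steps are the shortest, at 68 and 46.

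The genes that swung back included much of the protein-folding machinery. Of 19 heat shock and chaperone genes, 16 fell from 12 to 24 h, with a median log2 change of -0.58, against 0.01 over all genes, and the same 16 had risen by 12 h. HSPA8, the constitutive cytosolic HSP70 chaperone, stood at 592, 576 and 554 CPM at day 10, at 1790, 1690 and 1610 CPM at 12 h and at 786, 870 and 897 CPM at 24 h. Its 12 h libraries lay above all others, and its 24 h libraries had not come back into the day 10 range. The step from 12 to 24 h was -0.99 ± 0.07 on the log2 scale (adjusted p = 9.94e-11). HSPH1, a nucleotide exchange factor of HSP70, had 102, 90.4 and 92.5 CPM at day 10, 251, 236 and 223 CPM at 12 h and 98.4, 110 and 108 CPM at 24 h, so the day 10 and 24 h libraries overlapped (step -1.17 ± 0.08, adjusted p = 6.13e-12). DNAJA1, a J-domain partner of HSP70, fell by 0.92 ± 0.09. HSPA1B, a stress-inducible HSP70, had a step of -0.79 ± 0.11, but it is nearly identical to HSPA1A and the split of reads between them is uncertain.

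Genes of the endoplasmic reticulum (ER) stress response took the same course. Of 16, 10 fell from 12 to 24 h and 1 rose, with a median of -0.30, and 13 had risen by 12 h. HSPA5, the ER-resident HSP70 known as BiP, stood at 422, 383 and 355 CPM at day 10, 721, 744 and 700 CPM at 12 h and 375, 394 and 402 CPM at 24 h. The 12 h values were wholly apart, and the other times overlapped (step -0.89 ± 0.07, adjusted p = 1.84e-10; 24 h against day 10, 0.01 ± 0.07, adjusted p = 0.912). MANF, a secreted ER stress protein, and SDF2L1, an ER chaperone component, had steps of -0.80 ± 0.12 and -0.78 ± 0.13.

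Promoter sequences are shown for a pair of members of each of these lists because the members moved together. The pairs were taken from members that swung back and carry the motif, so a marked motif in each was fixed beforehand. They are RefSeq sequences (GRCh38.p14) from the 250 bases before the gene's start, read 5′ to 3′ on the gene's strand, and the capitals mark the motif on either strand. The heat shock element was searched as GAA, TTC and GAA with 2 bases of any kind between each, the ER stress element as CCAAT and CCACG with 9 bases between them, and overlapping matches were kept. A heat shock element was found before 3 of the 17 heat shock genes with a promoter in the table, against 0.441% of all 35116 promoters. An ER stress element was found before 6 of 16 ER stress genes, against 0.074%. For a list gene only the first promoter given was searched, whereas the 35116 hold every promoter of the source, of expressed genes or not. A match describes the letters and does not show a site in use. HSPA8 is from chr11:123062137-123062251 (minus strand), CHORDC1, an HSP90 co-chaperone, from chr11:90223050-90223159 (minus), HSPA5 from chr9:125241344-125241469 (minus) and CALR, the ER chaperone calreticulin, from chr19:12938359-12938462 (plus).
HSPA8: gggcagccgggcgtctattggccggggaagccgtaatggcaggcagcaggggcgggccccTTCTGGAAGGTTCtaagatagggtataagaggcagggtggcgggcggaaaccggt
CHORDC1: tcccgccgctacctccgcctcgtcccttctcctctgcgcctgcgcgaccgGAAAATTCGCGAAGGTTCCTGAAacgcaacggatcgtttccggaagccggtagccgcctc
HSPA5: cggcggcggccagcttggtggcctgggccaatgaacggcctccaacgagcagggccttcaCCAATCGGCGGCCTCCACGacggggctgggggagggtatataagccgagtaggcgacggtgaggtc
CALR: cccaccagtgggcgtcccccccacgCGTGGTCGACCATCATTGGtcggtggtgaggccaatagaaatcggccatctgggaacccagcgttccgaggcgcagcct

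CHORDC1, whose window holds 3 overlapping matches, stood at 55.8, 56.4 and 59.2 CPM at day 10, 79, 79.3 and 75.4 CPM at 12 h and 50.1, 51.7 and 55 CPM at 24 h (step -0.58 ± 0.06, adjusted p = 2.05e-08). CALR had the smaller step of -0.32 ± 0.06 (adjusted p = 9.1e-05). In both genes the 12 h libraries lay above those of the other times.

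Ribosome biogenesis genes fell almost as a block. Of 20 ribosome biogenesis and MYC-responsive genes, 19 fell from 12 to 24 h, with a median of -0.58, and 16 of them had risen by 12 h. At 24 h, 10 of the 20 were below day 10. RRP9, which binds the U3 small nucleolar RNA, stood at 10.9, 8.81 and 11 CPM at day 10, 25.3, 23 and 22 CPM at 12 h and 8.48, 8.23 and 8.04 CPM at 24 h. The 12 h values exceeded every other, and the 24 h values were below all of day 10 (step -1.50 ± 0.11, adjusted p = 1.45e-10), although that last difference was not called (adjusted p = 0.0906). BOP1, which matures the large subunit's RNA, fell by 1.29 ± 0.10, and RRP12, an export factor of pre-ribosomes, by 1.26 ± 0.11. NOP16, another nucleolar protein gene, had a step of -1.35 ± 0.16 and ended below day 10 (-0.63 ± 0.17, adjusted p = 0.0111). Among the largest decreases of the step were GPATCH4 (-2.15 ± 0.14), a nucleolar G-patch protein gene, and PUS7 (-1.67 ± 0.11), a pseudouridine synthase gene.

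The cell cycle lists moved in opposite directions. Of 24 G1 cyclin and replication genes, 19 fell from 12 to 24 h and 1 rose (median -0.42), and 17 were genes that had risen by 12 h. Of 24 G2 and M phase genes, 19 rose (median 0.31), and 18 were genes that had fallen by 12 h. Replication-dependent histone genes, whose transcripts mostly lack a poly(A) tail, did not follow the replication list. Of 16 tested, 7 rose and 2 fell in the step (median 0.79), and 1 had risen and 6 had fallen by 12 h (median -0.42). In whole cultures, fewer cells of a kind and less RNA per cell cannot be told apart. MCM6, a subunit of the replicative helicase, had 98.4, 88.1 and 90 CPM at day 10, 136, 128 and 124 CPM at 12 h and 71, 79.2 and 74.6 CPM at 24 h, with no overlap between any of the times (step -0.79 ± 0.07, adjusted p = 2.52e-09). UHRF1, which carries DNA methylation through replication, fell by 0.85 ± 0.09, and CCND1, encoding cyclin D1, by 0.79 ± 0.07.

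TOP2A, the topoisomerase that untangles chromosomes, moved the other way, with 1010, 933 and 950 CPM at day 10, 563, 660 and 667 CPM at 12 h and 898, 948 and 945 CPM at 24 h. Its day 10 and 24 h libraries overlapped and its 12 h libraries were lower than all of them (step 0.56 ± 0.08, adjusted p = 2e-06). CENPE, a kinetochore motor, rose by 0.55 ± 0.08 and KIF23, a motor of cytokinesis, by 0.44 ± 0.07. CCNB1, encoding cyclin B1, stood at 145, 155 and 151 CPM at 24 h and 115, 138 and 140 CPM at 12 h, and this difference was not called (0.20 ± 0.08, adjusted p = 0.0554).

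Promoter windows of a pair from each cell cycle list are given for the same reason, chosen in the same way and taken from the same source. The cell cycle homology element was searched as TTTGAA and the E2F element as TTTCCCGC or TTTGGCGC, on both strands. The first was found before 12 of 20 G2 and M phase genes, against 13.3% of all promoters, and the second before 11 of 18 G1 and replication genes, against 1.93%. TOP2A is from chr17:40417982-40418107 (minus strand), KIF23 from chr15:69414234-69414348 (plus), UHRF1 from chr19:4909427-4909500 (plus) and MCM6 from chr2:135876466-135876595 (minus).
TOP2A: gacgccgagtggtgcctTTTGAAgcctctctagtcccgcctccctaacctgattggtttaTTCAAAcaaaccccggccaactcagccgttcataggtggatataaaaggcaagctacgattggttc
KIF23: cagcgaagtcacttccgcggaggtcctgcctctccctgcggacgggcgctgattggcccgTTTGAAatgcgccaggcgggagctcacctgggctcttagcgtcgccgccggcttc
UHRF1: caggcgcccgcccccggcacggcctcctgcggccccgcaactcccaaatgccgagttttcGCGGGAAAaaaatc
MCM6: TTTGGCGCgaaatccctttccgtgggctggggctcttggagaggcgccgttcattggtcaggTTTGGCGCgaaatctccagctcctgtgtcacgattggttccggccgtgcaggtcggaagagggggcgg

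**Figure D2:**
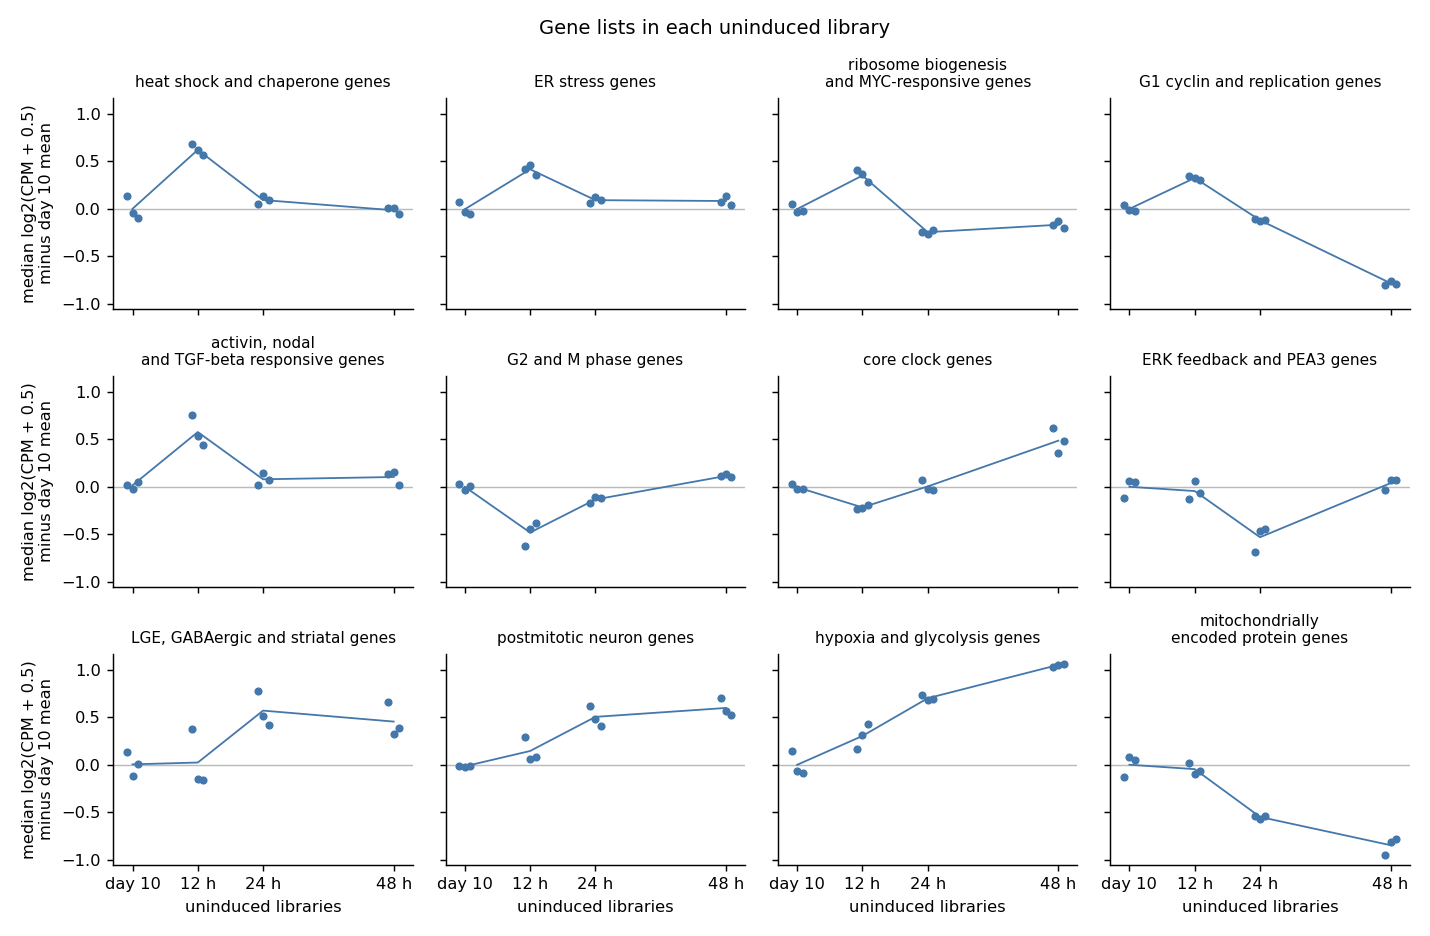
Median over each gene list of log2(CPM + 0.5) minus the day 10 mean (y axis) in every uninduced library at day 10, 12, 24 and 48 h (x axis), with lines through the group means. Chaperone, ER stress, ribosome biogenesis and replication lists peak at 12 h and the G2 and M phase list is lowest there, whereas the LGE and neuron lists are above their 12 h level at 24 h and the hypoxia and glycolysis list is higher at each later time.

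Cell cycle inhibitors held the gene that ranked highest among those named for a rise after a fall. CDKN2C (chr1:50960745-50974634, hg38), which encodes p18INK4C, an inhibitor of CDK4 and CDK6, had 8.67, 6.78 and 5.57 CPM at day 10, 1.48, 1.1 and 1.67 CPM at 12 h and 7.26, 7.39 and 6.35 CPM at 24 h. Every 12 h library was below every other, and the 24 h libraries fell within the day 10 range (step 2.30 ± 0.19, adjusted p = 4.98e-10; 24 h against day 10, 0.02 ± 0.15, adjusted p = 0.937). CDKN2D, encoding the related p19INK4D, rose by 0.85 ± 0.11 after a fall of like size (-0.67 ± 0.11 by 12 h). Of the 7 inhibitors tested, 3 rose and 1 fell in the step.

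Other genes named for a rise after a fall were of low abundance. TESMIN, a testis-expressed metallothionein-like gene, had 4.23, 4.01 and 4.07 CPM at day 10, 0.306, 0.685 and 0.835 CPM at 12 h and 2.62, 3.15 and 2.74 CPM at 24 h. Its groups did not overlap, and at 24 h it was still below day 10 (step 2.18 ± 0.23, adjusted p = 3.53e-08; 24 h against day 10, -0.53 ± 0.17, adjusted p = 0.0289). RAPGEF4, encoding the cAMP-activated exchange factor EPAC2, had 3.45, 2.03 and 2.43 CPM at day 10, 0.51, 0.685 and 1.01 CPM at 12 h and 6.56, 5.83 and 6.71 CPM at 24 h. It passed above day 10 and made the largest increase of the step among the named genes (3.09 ± 0.29, adjusted p = 9.26e-09). The membrane proteins in this group included GABRA3, a GABA-A receptor subunit (1.32 ± 0.13), CACNA1I, a T-type calcium channel (1.52 ± 0.28), CRHR1, the receptor of corticotropin-releasing hormone (1.56 ± 0.22), and the neuronal adhesion gene NEGR1 (1.45 ± 0.19).

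Clock output genes were among those lowest at 12 h. Of 19 core clock genes, 8 rose and 1 fell from 12 to 24 h (median 0.25), and 7 of the 8 had fallen by 12 h. TEF, a PAR-bZIP factor under clock control, had 35.7, 27.6 and 30 CPM at day 10, 8.25, 11.6 and 11.2 CPM at 12 h and 26.7, 25.4 and 22.4 CPM at 24 h. Its 12 h libraries were far below the rest, while 24 h lay slightly below day 10 without a call (step 1.26 ± 0.15, adjusted p = 6.54e-07; 24 h against day 10, adjusted p = 0.116). DBP, a second PAR-bZIP gene, and the repressor CRY2 each rose by 0.85, with errors of 0.15 and 0.09. With 4 collection times, these values describe single ages and no rhythm.

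Of the metabolic lists, the glucose-sensing and FOXO targets showed a like pattern. Of 19 glucose-sensing and FOXO target genes, 10 rose and 1 fell in the step (median 0.33), and 6 had fallen by 12 h before rising. BCL6, a transcriptional repressor, stood at 43.3, 38.6 and 40.3 CPM at day 10, 23.1, 24.8 and 26.6 CPM at 12 h and 41.3, 43.1 and 44.1 CPM at 24 h (step 0.78 ± 0.09, adjusted p = 1.21e-07), so only 12 h lay apart. Of 27 SREBP and cholesterol synthesis genes, 15 rose and 2 fell (median 0.19), but only 4 of the rises followed a fall by 12 h. The genes that rose included SREBF2, the sterol-regulated transcription factor (0.52 ± 0.07), and FDPS, of isoprenoid synthesis (0.46 ± 0.06). The ATF4 and amino acid stress list went the other way. Of its 22 genes, 13 fell and 2 rose (median -0.29), and 9 of the falls followed a rise by 12 h. The genes that fell included MTHFD2, a mitochondrial folate enzyme (-0.91 ± 0.09), and PSAT1, of serine synthesis (-0.76 ± 0.08).

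The genes named for a fall after a rise included WNT ligands. WNT3A (chr1:228006998-228061271, hg38), a canonical WNT ligand, had 0.634, 0.748 and 0.84 CPM at day 10, 8.97, 10.3 and 8.62 CPM at 12 h and 2.07, 3.4 and 3.7 CPM at 24 h. The times did not overlap, and 24 h remained above day 10 (step -1.64 ± 0.17, adjusted p = 2.83e-08; 24 h against day 10, 1.98 ± 0.25, adjusted p = 1.63e-06). WNT1, a second ligand, fell by 1.48 ± 0.25, and SOST, encoding the WNT antagonist sclerostin and named for its decrease in the step, by 2.25 ± 0.35. SOST was listed at 0.641, 0.63 and 0.959 CPM at 24 h and 1.94, 5.44 and 3.12 CPM at 12 h, so its groups were apart but its 12 h libraries varied widely. Of 11 WNT feedback targets tested, 6 fell and 1 rose in the step (median -0.31), and 3 of those that fell had risen by 12 h.

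The activin, nodal and TGF-beta responsive list had the lowest median of the step among the lists examined, at -1.11. Of its 12 tested genes 8 fell and 8 had risen by 12 h, and 6 did both. LEFTY2, a secreted antagonist of nodal, had 83.6, 77.6 and 67.4 CPM at day 10, 300, 301 and 329 CPM at 12 h and 109, 132 and 121 CPM at 24 h. The times did not overlap, although reads may be split uncertainly with its close paralog LEFTY1 (step -1.36 ± 0.11, adjusted p = 1.31e-08).

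Contractile and adhesion genes fell too. Of 18 YAP and SRF target genes, 9 fell and 3 rose (median -0.33). TAGLN, an actin-binding protein, had 98.6, 108 and 107 CPM at 24 h and 273, 259 and 260 CPM at 12 h (-1.34 ± 0.19, adjusted p = 5.46e-05), with the groups wide apart. ACTC1, the cardiac alpha-actin gene, fell by 1.48 ± 0.11, CAV1, encoding caveolin-1, by 1.54 ± 0.26, and CD44, the hyaluronan receptor, by 1.70 ± 0.27. LANCL2, a LanC-like family member, stood at 16.6, 14 and 16.2 CPM at day 10, 58.9, 57.1 and 54.1 CPM at 12 h and 19.7, 19.3 and 20.1 CPM at 24 h (step -1.52 ± 0.11, adjusted p = 9.94e-11). It was among the more abundant genes that the rule named for this swing.

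**Figure D3:**
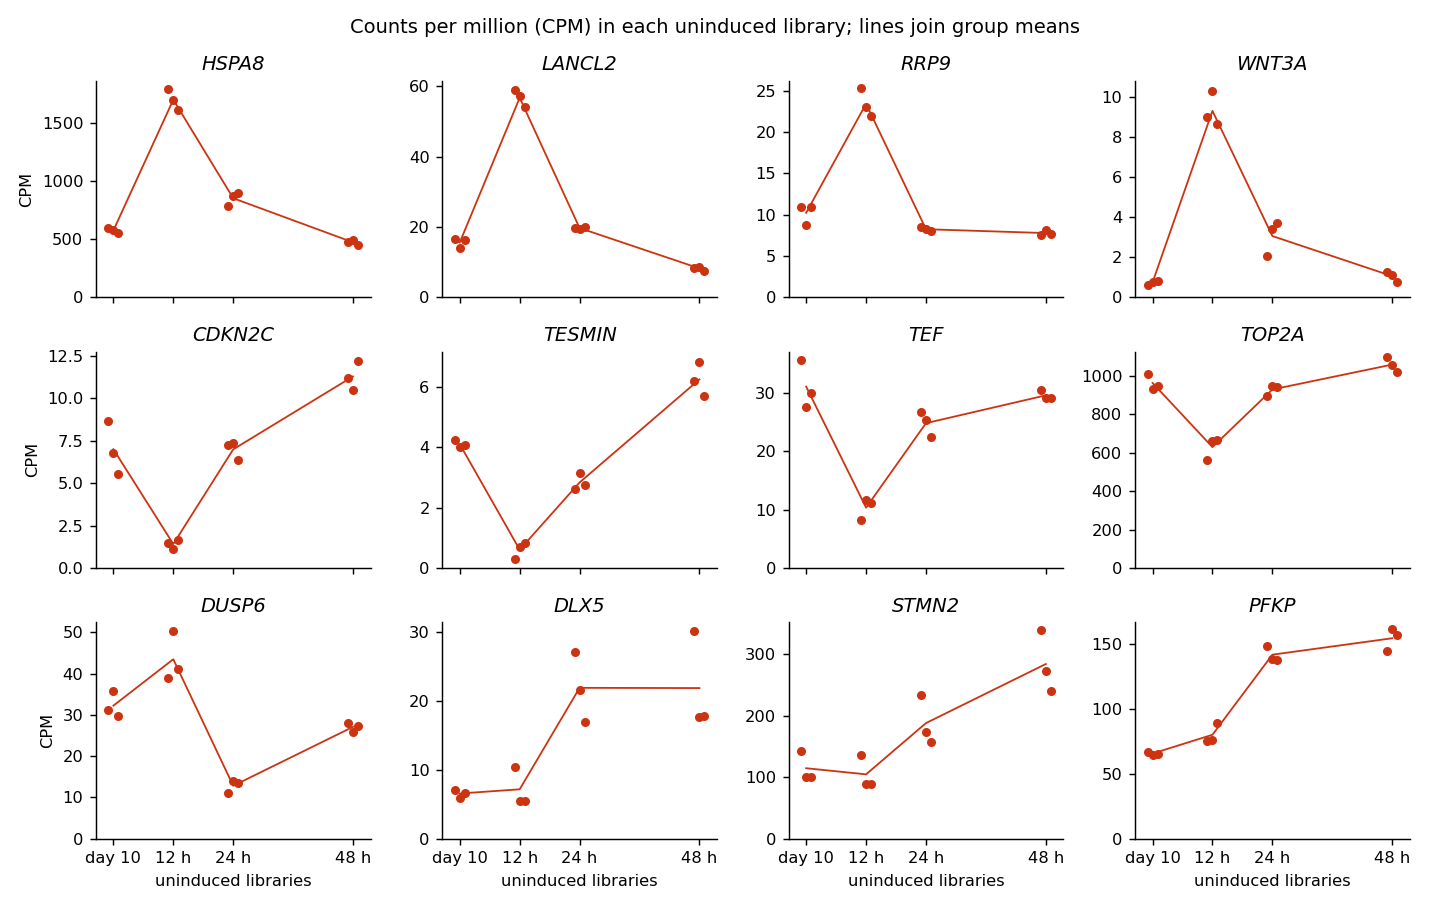
CPM (y axis, from 0, scaled for each gene) of 12 genes in each uninduced library at day 10, 12, 24 and 48 h (x axis), with lines joining group means. HSPA8, LANCL2, RRP9 and WNT3A peak at 12 h, and CDKN2C, TESMIN, TEF and TOP2A are lowest at 12 h. From 12 to 24 h, DUSP6 falls and DLX5, STMN2 and PFKP rise.

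A further 1522 genes rose and 1406 fell in the step without a call by 12 h. Feedback genes of the ERK pathway mixed such genes with some that swung back. Of 15 ERK feedback and PEA3 genes, 10 fell in the step (median -0.65), 4 of them after a called rise by 12 h, and 12 ended below day 10. DUSP6, the cytosolic phosphatase of ERK, had 11, 14.1 and 13.4 CPM at 24 h and 38.9, 50.4 and 41.1 CPM at 12 h (-1.77 ± 0.11, adjusted p = 5.32e-12). Day 10 lay between, at 31.1, 35.8 and 29.8 CPM, so DUSP6 had risen by 12 h (0.43 ± 0.10, adjusted p = 0.00177) and then passed below day 10. SPRY2 (-1.09 ± 0.11) and SPRY4 (-1.39 ± 0.23), inhibitors of receptor tyrosine kinase signals, and the PEA3 factor ETV5 (-0.96 ± 0.11) fell without a called change by 12 h. Of 18 Notch effectors and ligands, 8 fell and 3 rose (median -0.26), against 17.2% and 17.9% of all genes. By 12 h, 7 of the 18 had risen, and 5 of these fell again, among them NRARP (-0.79 ± 0.07) and HEY1 (-0.77 ± 0.08). Over all genes, 62.9% of those that had risen by 12 h fell again. Of 13 BMP and ID targets, 7 fell and 1 rose (median -0.49), and 4 of the falls followed a rise. ID3 (-1.23 ± 0.16) was not called by 12 h.

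Genes of the LGE and of GABAergic neurons rose in the same 12 hours. Of 22 LGE, GABAergic and striatal genes, 12 rose and the other 10 did not pass (median 0.47). By 12 h, 3 of the 22 had risen and 5 had fallen, and 3 of the later rises followed such a fall. Over all genes, 60.4% of those that had fallen by 12 h rose again. At 24 h, 15 were above day 10 and 2 were below it. DLX5, a homeobox factor of GABAergic precursors, had 27.2, 21.6 and 17 CPM at 24 h and 10.5, 5.53 and 5.54 CPM at 12 h (1.63 ± 0.26, adjusted p = 0.000129). DLX6-AS1 (chr7:96955141-97014088, hg38), a long noncoding RNA at the DLX5 and DLX6 locus, had 302, 185 and 168 CPM at 24 h and 57.5, 23.9 and 22.3 CPM at 12 h (2.67 ± 0.41, adjusted p = 0.00014). In both genes the groups were apart and replicate 1 was the highest at each time. The strand setting of the counting is not given in the sources used here, so DLX6-AS1 and DLX6 (1.43 ± 0.21) may share reads. GAD1, a GABA-synthesizing enzyme, rose in both steps (1.06 ± 0.18 by 12 h and 0.47 ± 0.16 from 12 to 24 h).

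Neuronal genes rose as well. Of 24 postmitotic neuron genes 14 rose (median 0.35), and 19 were above day 10 at 24 h. By 12 h, 7 of the 24 had already risen and 3 had fallen, and 2 of the later rises followed such a fall. MAPT, which encodes tau, had 33.4, 24.1 and 24.9 CPM at 24 h and 14.6, 11.2 and 10.3 CPM at 12 h (1.21 ± 0.13, adjusted p = 1.05e-07), without overlap. STMN2, a microtubule regulator of growing axons, rose by 0.85 ± 0.21. Of 25 ion channel and transmitter receptor genes, 17 rose and 1 fell (median 0.74). By 12 h, 1 of the 25 had risen and 7 had fallen, and 6 of the later rises followed such a fall. At 24 h, 12 were above day 10 and 1 was below it. GRIA2, an AMPA receptor subunit, had 6.91, 4.03 and 3.65 CPM at 24 h and 1.94, 0.914 and 0.835 CPM at 12 h (2.04 ± 0.34, adjusted p = 6.49e-05). SCN2A, a neuronal sodium channel, rose by 1.20 ± 0.27. The neuronal factors POU3F4 (1.84 ± 0.30) and MYT1L (1.80 ± 0.28) were among the largest increases.

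Genes of glycolysis and low oxygen mostly rose in both steps or in 1 of them. Of 27 hypoxia and glycolysis genes, 18 rose and 3 fell in the step (median 0.43), and all 27 tested were above day 10 at 24 h. PFKP, a phosphofructokinase of glycolysis, had 149, 139 and 138 CPM at 24 h and 75.2, 76.2 and 89.3 CPM at 12 h (0.82 ± 0.09, adjusted p = 1.48e-07). ALDOC, an aldolase of brain, rose by 1.31 ± 0.15, and PDK1, which restrains pyruvate entry into mitochondria, by 0.32 ± 0.08. HK2, a hexokinase, had risen by 12 h (0.91 ± 0.10) and was not called afterwards, with 488, 446 and 471 CPM at 24 h and 448, 438 and 450 CPM at 12 h. Of the 13 mitochondrially encoded protein genes, 9 fell (median -0.43), such as MT-ND2, a complex I subunit, with 656, 712 and 807 CPM at 24 h and 1330, 1250 and 1250 CPM at 12 h (-0.82 ± 0.10, adjusted p = 1.08e-06). Reads of the mitochondrial genome made up 1.97 to 2% of counts at 24 h and 2.18 to 2.31% at 12 h.

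The Dox cultures passed through the same hours in other libraries, after 12 h of induction and then its withdrawal. This comparison was chosen after the data were seen, it shares no library with the uninduced step, and the difference between the arms was not tested. From 12 to 24 h, 4226 genes rose (21.5%) and 4156 fell (21.1%) in the Dox cultures. Of the genes that fell and rose again without Dox, 767 were called higher and 285 lower in the Dox step, and 64.5% had the same sign in both, against 58.6% of all genes. Of the genes that rose and fell again, 647 were called lower and 389 higher, and 61.2% had the same sign.

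Lists behaved unequally between the arms. Heat shock genes had medians of -0.58 without Dox and -0.60 with Dox, and 15 of the 19 fell with Dox. The G2 and M phase list had medians of 0.31 without Dox and 0.35 with Dox, and 18 of the 24 rose with Dox. TEF had a step of 1.26 ± 0.15 in each arm. Ribosome biogenesis genes, at -0.58 without Dox, had a median of 0.16 with Dox, where 10 rose and 1 fell. ERK feedback genes, at -0.65 without Dox, had a median of 1.60 with Dox, where 14 of 15 rose. HSPA5 stood at 477, 523 and 505 CPM at Dox 24 h and 490, 499 and 556 CPM at Dox 12 h, a difference that was not called (-0.04 ± 0.07, adjusted p = 0.691). CDKN2C, at 1.85, 1.52 and 1.13 CPM at Dox 24 h and 1.22, 1.31 and 0.968 CPM at Dox 12 h, was not called either (adjusted p = 0.232).

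**Figure D4:**
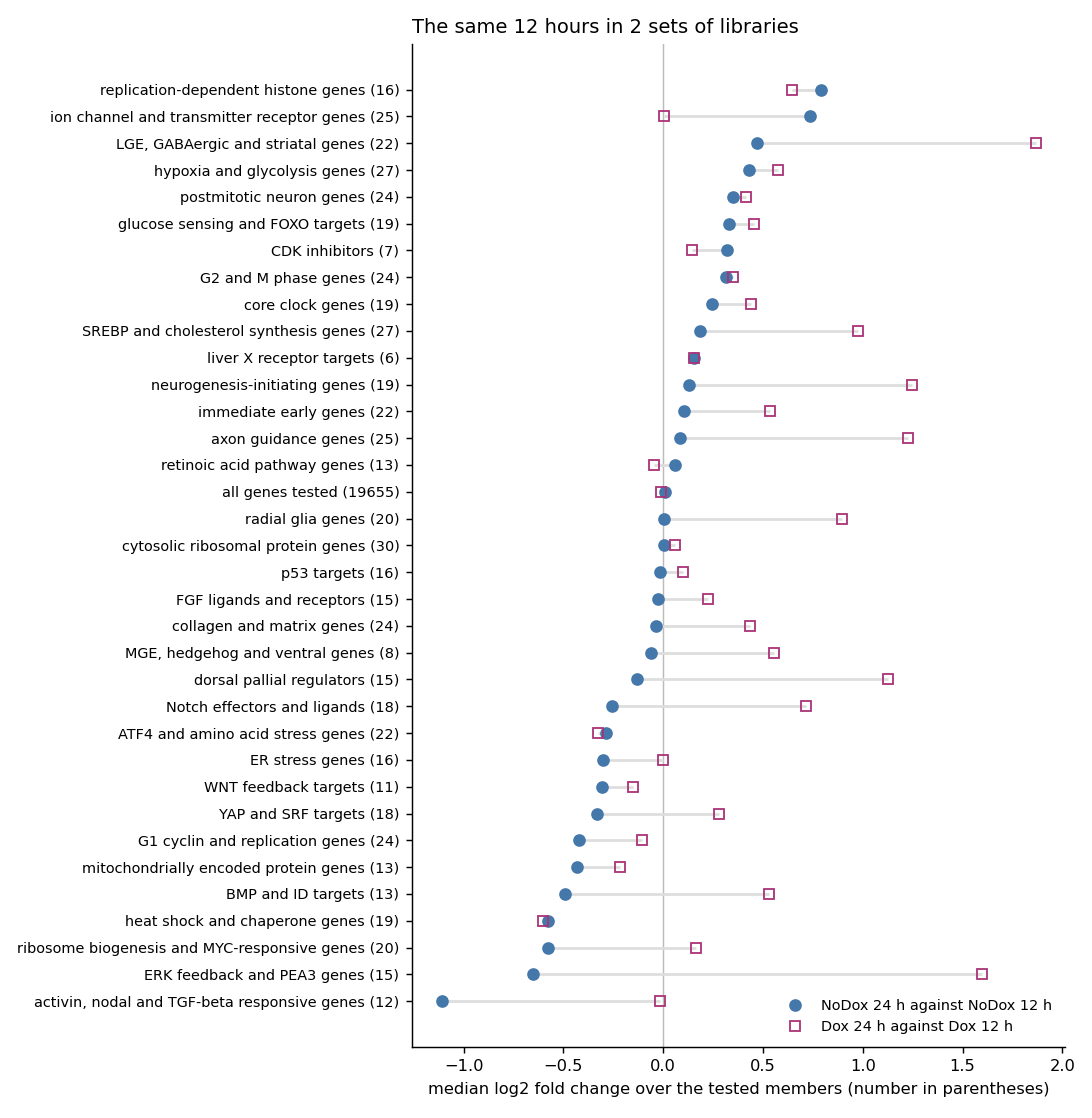
Median log2 fold change of 24 h against 12 h (x axis) over the tested members of each gene list (y axis), in uninduced libraries (filled circles) and in Dox libraries (open squares). The 8 lists of cell type markers are left out, and a row for all genes tested is included. Heat shock and G2 and M phase lists have nearly the same median in both, and ERK feedback genes lie at -0.65 without Dox and 1.60 with Dox.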

How the data were processed

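Polyadenylated RNA was sequenced with a directional kit, per the labels' protocols. The authors deposited a table of raw counts per gene, and a table of DESeq2-normalized counts (a signal scaled by size factors), which holds 19874 features. The submitters' processing notes name STAR 2.7.9, Subread 2.0.3, DESeq2 and hg38, and neither the annotation nor the strand setting is given in the sources used here. Deposited counts of all 21 libraries in 7 groups were fitted together with edgeR 4.0.16 (R 4.3.3), with TMM scaling, filterByExpr and a robust quasi-likelihood F test on 14 residual degrees of freedom. Genes were called at a Benjamini-Hochberg adjusted p below 0.05 over 19655 genes. CPM uses TMM-scaled library sizes, and a count of 0 allows up to 0.0886 to 0.208 CPM in the day 10, 12 h and 24 h uninduced libraries (3 counts, counting error only). The standard error is the log2 fold change divided by the square root of F.

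Named genes were the 14 largest increases and 14 largest decreases of the step, the 12 largest swings each way (by the smaller of both changes), provided that the mean reached 2 CPM, the groups' replicates did not overlap and the name was not clone-style, and up to 4 members per list. Other list members are given with their values, and some genes the rule took are not reported here. Members and the 42 gene lists, 8 of them cell type markers, were chosen with earlier results of these data known, so lists are described by counts and medians, without a test. Alternatives included DESeq2 1.42.0, limma 3.58.1 on log2(normalized count + 1), other scalings, no filter, glmTreat, fewer libraries, a replicate block and leaving out each replicate. Promoters came from RefSeq (GRCh38.p14).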

Additional observations from a re-analysis of the deposited data

How the results depend on the processing

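Counts of called genes stayed within 1.5 times under DESeq2, limma, other scalings, no filter and fewer libraries. They dropped when changes had to exceed 0.5 on the log2 scale (glmTreat). That test called 335 genes higher and 294 lower at 24 h against 12 h, 340 and 238 at 12 h against day 10, and 174 and 53 at 24 h against day 10. It left 95 genes rising after a fall and 134 falling after a rise. By construction, smaller changes could not pass it. Leaving out single replicates gave 2687 to 3752 genes higher and 2554 to 3568 lower in the step, 2440 to 2956 and 2506 to 3127 at 12 h against day 10, and 1118 to 1708 and 945 to 1635 at 24 h against day 10. The lowest of these last counts, 1118 and 945, came without NoDox 24 h replicate 1, the deepest library, and the cause was not tested. Swing-back counts ran from 1498 to 1947 for rises after a fall and from 1480 to 1917 for falls after a rise. Of 202 named genes, some had no call to lose, since list members were named whatever their call. When some replicate was left out, 20 lost their call in the step. Under some alternative other than glmTreat, replicates left out included, 24 lost it. Under glmTreat 69 lost it. For 120 the call, or its absence, was the same under every alternative run. Among these 202, no gene called in the step in the main fit or in an alternative had opposite signs in those fits. Signs were not compared for other genes or for the other comparisons.

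Replicate numbers were not taken to pair the libraries, since same-numbered deviations at 24 h and 12 h correlated weakly over all genes, at 0.0978, 0.0456 and 0.0363. All were positive, and replicate 1 was the highest library of the LGE list at each uninduced time. With the replicate block, 3559 genes were higher and 3402 lower in the step, and 1993 and 1934 swung back. On the 6 libraries alone, 4177 were higher and 4408 lower without the replicate block, and 4536 and 4770 with it. Scaling moved the median of all genes from 0.01 to 0.03 at most, and the medians of the step printed for lists kept their sign, except that of the radial glia genes. Depth limits genes near 1 CPM most, among them SOST and TESMIN at their lowest.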

Other observations

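Some gene groups had a small median in the step, with members called in both directions. Over all genes tested, 17.9% rose and 17.2% fell, so a small median does not mean that few members changed. Of 20 radial glia genes, 2 rose and 5 fell, and their median was 0.01, with a sign that differed between scalings. Of 15 FGF ligands and receptors, 5 rose and 3 fell, with a median of -0.03. Of 25 axon guidance genes, 8 rose and 6 fell, with a median of 0.08. Of 24 collagen and matrix genes, 4 rose and 7 fell, with a median of -0.04. Of 22 immediate early genes, 4 rose and 3 fell from 12 to 24 h, after 2 had risen and 11 fallen by 12 h. NR4A1, an orphan nuclear receptor of this group, stood at 202, 222 and 202 CPM at day 10, 105, 118 and 132 CPM at 12 h and 159, 184 and 170 CPM at 24 h (step 0.53 ± 0.08, edgeR adjusted p = 4.53e-06). The 24 h libraries thus lay between the other times, without overlap. NES, the intermediate filament gene of neural progenitors, fell in the step by 0.66 ± 0.06 after a rise of 0.48 ± 0.06.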
